A study of Mus musculus with 3 samples.

Results

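The IFIT genes (interferon-induced proteins with tetratricopeptide repeats) were examined in polyadenylated RNA of mouse macrophages. The 6 members Ifit1, Ifit1bl1, Ifit1bl2, Ifit2, Ifit3 and Ifit3b were taken by symbol from the transcript tables and by gene identifier from the gene tables, out of 55450 genes present in both. The cells were macrophages grown in culture from C57BL/6J bone marrow. Per the labels, all 3 samples were given 100 ng/ml lipid A for 12 hours, then 12 hours without it after washing, then lipid A at the same dose for 180 minutes. Lipid A is the part of bacterial lipopolysaccharide that Toll-like receptor 4 (TLR4) binds. Other label fields call the agent lipoprotein A, and which name is right was not settled here. The samples form 1 group of replicates 1, 2 and 3 with separate biosample records and 1 shared donor record, so their spread may be technical, and p-values measure only that spread. No samples without the agent, or with a single dose of it, were compared, so the values describe levels, ratios between members and the spread between replicates, not a response.

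Cells that have received type I interferon make IFIT proteins. The interferon receptor signals through the transcription factor complex ISGF3, which binds the interferon-stimulated response element in IFIT promoters. TLR4 reaches this route indirectly, through the adaptor TRIF and the interferon beta that the cells then release. Other routes to IFIT genes are not covered here, and whether these cells received interferon was not tested. IFIT1 grips the end of RNA whose cap lacks ribose methylation and blocks its translation. IFIT proteins also join one another in complexes and contact the translation initiation factor eIF3.

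Each sample was quantified by the authors in 2 ways, from reads aligned to the transcriptome (alignment-made) and straight from the read files (FASTQ-made). Values are alignment-made unless said otherwise. Expected counts, the alignment-made read counts per gene, summed to 23418690, 36863611 and 37728915 in replicates 1, 2 and 3. All 7 macrophage markers reached 1 TPM (a level per transcript length and library size) in every replicate, with sums of 15548 to 17433 TPM. Of the markers of other cells, 2 of 6 for neutrophils, 0 of 3 for B cells, 0 of 3 for T cells, 1 of 3 for plasmacytoid dendritic cells, 0 of 3 for conventional dendritic cells, 0 of 3 for stromal cells and 2 of 3 for endothelial cells did so. The neutrophil markers summed to 12.3, 108 and 11.0 TPM in replicates 1, 2 and 3, with Ly6g listed at 0 in all, so replicate 2 stood apart in them. The highest of them by mean was S100a9, at 22.4 ± 30.8 TPM (SD, n = 3). The B, T, conventional dendritic and stromal sums stayed at or below 0.91 TPM, the plasmacytoid dendritic sum ran from 26.9 to 30.5 TPM, nearly all of it Tcf4, and the endothelial sum from 9.91 to 24.3 TPM. In bulk RNA, fewer cells of a type and less RNA per cell cannot be told apart.

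The 6 genes lie side by side on chromosome 19 (mouse build GRCm38, annotation GENCODE M21), in 99316 bases from 34550694 to 34650009. Ifit2 (ENSMUSG00000045932.12) spans 34550694 to 34576419 on the plus strand, followed by Ifit3 (ENSMUSG00000074896.3) from 34583531 to 34588731 on the plus strand. Ifit1bl1 (ENSMUSG00000079339.7) spans 34592891 to 34601956 on the minus strand and Ifit3b (ENSMUSG00000062488.9) 34607970 to 34613401 on the plus strand. Ifit1bl2 (ENSMUSG00000067297.5) spans 34617049 to 34640743 on the minus strand and Ifit1 (ENSMUSG00000034459.8) 34640871 to 34650009 on the plus strand. In each annotated transcript of the members the last exon holds 96.2% or more of the coding bases. First exons are 29 to 142 bases long, except in Ifit2, where they are 313 and 329 bases. Their coding sequences fall into 3 kinds by identity over aligned bases, with gaps left out. Ifit3 and Ifit3b are 99.1% identical, Ifit1bl1 and Ifit1bl2 are 88.2% identical to each other and 74.9% and 74.7% identical to Ifit1, and Ifit2 is 52.0% to 58.3% identical to the others.

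Ifit3 and Ifit3b, whose levels are compared below, differ at 11 of 1209 coding bases (the stop codon left out), and the longest identical stretch is 329 bases. The 120 coding bases with the most differences are shown, since such positions tell reads of the coding parts apart. These are coding bases 169 to 288, in the last exon of each gene, at chr19:34587224-34587343 in Ifit3 and chr19:34611594-34611713 in Ifit3b, both on the plus strand of GRCm38. Capitals mark the 4 bases that differ.
Ifit3: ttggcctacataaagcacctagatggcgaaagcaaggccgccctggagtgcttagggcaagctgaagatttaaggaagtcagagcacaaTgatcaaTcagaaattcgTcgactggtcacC
Ifit3b: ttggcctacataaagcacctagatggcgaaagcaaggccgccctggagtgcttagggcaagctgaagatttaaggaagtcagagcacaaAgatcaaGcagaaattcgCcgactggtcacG
Of all 31-base windows in Ifit3 transcripts, 61.8% also occur in Ifit3b, and 54.1% of those in Ifit3b occur in Ifit3. With 100-base windows the shares are 31.7% and 27.4%. Shared windows are sparser behind the coding part, where the transcripts run on for 467 bases in Ifit3 and 767 in Ifit3b. Ifit2 shares no 31-base window with any other gene, Ifit1 shares 9.16% with Ifit1bl2 and 5.23% with Ifit1bl1, and Ifit1bl1 shares 18.7% with Ifit1bl2.

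**Figure D1:**
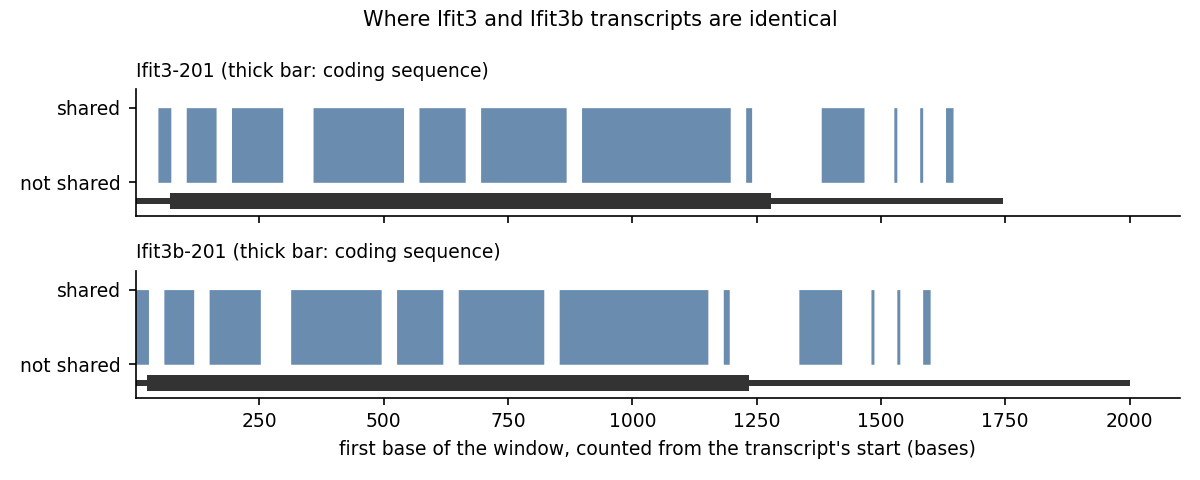
Position along the Ifit3 and Ifit3b transcripts (x axis, bases from the transcript's start) against whether the 31-base window that begins there also occurs in the other gene (blue). The thick bar marks the 1209 coding bases. Shared windows, 61.8% of Ifit3 and 54.1% of Ifit3b, fill most of the coding part, and the last stretch of Ifit3b has none.

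Promoters of the family are shown because some of their sequences overlap or are nearly alike. RefSeq (build GRCm38.p6) gave windows of 250 bases before to 50 bases after a start for 6 of 6 members, 9 windows in all. RefSeq starts differ from those of GENCODE. The second windows of Ifit2 (chr19:34550838-34551137), Ifit1bl2 (chr19:34629762-34630061) and Ifit1bl1 (chr19:34599378-34599677) hold no GENCODE start of their gene. Each was searched on both strands for GAAA, any 2 bases and GAAA again, the core of the interferon-stimulated response element, which reads TTTC, any 2 bases and TTTC on the other strand. Overlapping matches were counted. At least 1 match was present in 6 of the 9 windows, which belong to 5 of 6 members and in part overlap, against 3.44% of 32851 promoter windows of the same length over all genes, and 0.225% of those held 2 or more. A match describes letters and does not show that a factor bound there. Capitals mark the matches, and each sequence runs 5′ to 3′ on the strand of its gene: Ifit1 at chr19:34640639-34640938 (plus), Ifit3 at chr19:34583279-34583578 (plus), Ifit3b at chr19:34607707-34608006 (plus) and Ifit1bl1 at chr19:34601919-34602218 (minus).
Ifit1: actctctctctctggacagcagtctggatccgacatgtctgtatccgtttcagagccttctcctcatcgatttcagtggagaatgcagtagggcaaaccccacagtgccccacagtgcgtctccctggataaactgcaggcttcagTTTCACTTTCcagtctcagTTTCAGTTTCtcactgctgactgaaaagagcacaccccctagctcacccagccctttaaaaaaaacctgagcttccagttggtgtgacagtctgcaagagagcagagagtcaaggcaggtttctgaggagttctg
Ifit3: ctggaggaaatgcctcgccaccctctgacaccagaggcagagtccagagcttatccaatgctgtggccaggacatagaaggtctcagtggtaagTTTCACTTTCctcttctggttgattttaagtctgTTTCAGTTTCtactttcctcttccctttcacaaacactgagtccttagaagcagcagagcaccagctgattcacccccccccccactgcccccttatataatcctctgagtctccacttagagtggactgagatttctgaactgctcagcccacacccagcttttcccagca
Ifit3b: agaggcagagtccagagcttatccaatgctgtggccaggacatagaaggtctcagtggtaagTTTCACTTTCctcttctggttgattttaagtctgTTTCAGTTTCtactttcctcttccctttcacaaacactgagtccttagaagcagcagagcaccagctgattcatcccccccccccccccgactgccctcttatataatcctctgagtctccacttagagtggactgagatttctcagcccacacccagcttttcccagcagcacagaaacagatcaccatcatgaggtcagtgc
Ifit1bl1: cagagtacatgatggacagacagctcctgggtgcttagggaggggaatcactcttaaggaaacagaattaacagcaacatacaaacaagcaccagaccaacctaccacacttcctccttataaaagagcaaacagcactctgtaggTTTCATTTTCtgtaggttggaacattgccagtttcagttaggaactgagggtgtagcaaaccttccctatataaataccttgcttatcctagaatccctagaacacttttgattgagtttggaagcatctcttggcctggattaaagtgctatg
Ifit1 and Ifit1bl2 are arranged head to head, with 127 bases between their GENCODE starts. Their promoter windows overlap by 245 bases, and the 2 matches are the same letters for both genes. The first bases of these matches lie 104 and 85 bases before the RefSeq start of Ifit1, which lies within the gene as GENCODE has it. The windows of Ifit3 and Ifit3b were 99.2% identical over 260 aligned bases, each with 2 matches. Gaps were left out of these identities, and the 2 sequences above also differ by inserted or missing bases. Ifit1bl1 has 2 RefSeq starts whose windows were 89.0% identical over 219 aligned bases, with 1 match in each. The 2 windows of Ifit2 and the second window of Ifit1bl2 (chr19:34629762-34630061, minus strand) held no match, which says only that these letters are not in those windows.

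All members but Ifit1bl2 were among the more abundant messages of the cells, and Ifit1bl2 stayed below 1 TPM. Together the 6 genes made up 4902, 4532 and 4057 TPM in replicates 1, 2 and 3, a mean of 4497 ± 424 TPM (SD, n = 3) or 0.450% ± 0.0424 of all TPM. A level of 1 TPM or more was seen in every replicate for 5 of 6 members, against 44.4% of protein-coding genes. Their median log2(TPM + 1) was 9.04, beside 0.42 for protein-coding genes and 4.14 for the genes that reached 1 TPM in all replicates.

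**Figure D2:**
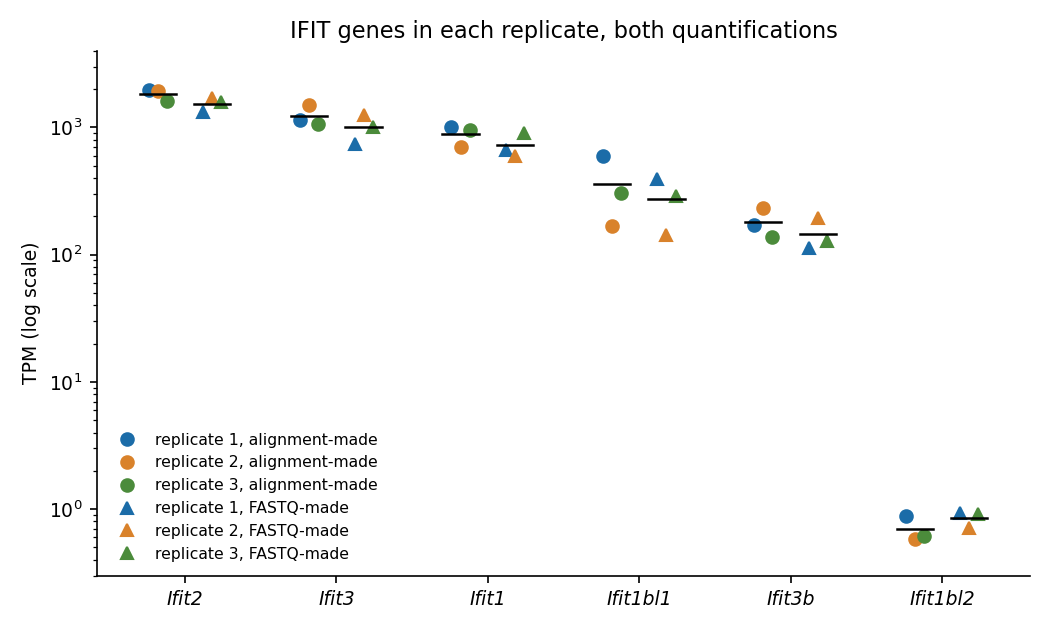
TPM on a log axis for each of the 6 IFIT genes, with 1 point per replicate (colour), circles for the alignment-made and triangles for the FASTQ-made quantification, and a bar at each mean. Ifit2, Ifit3 and Ifit1 have alignment-made means of 1841, 1229 and 889 TPM, Ifit1bl1 spreads from 169 to 599 TPM, and Ifit1bl2 lies below 1 TPM in every replicate by both.

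Ifit2, whose protein binds RNA and joins the complexes of the family, was the highest member. It stood at 1979, 1933 and 1610.3 TPM in replicates 1, 2 and 3, a mean of 1841 ± 201 TPM (SD, n = 3), which ranks it 51 among 21951 protein-coding genes. The 3 replicates were close, and the highest was 1.23 times the lowest. Nearly all of it came from a single transcript, Ifit2-201, with 99.9% of the gene's TPM. The shorter Ifit2-202 took 0.0643% ± 0.0137 and rested on 7.46, 16.9 and 10.4 expected counts. Ifit2 held 40.9% ± 1.56 of the family's TPM, the share with the smallest spread relative to its size.

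Ifit3, whose protein also joins complexes of the family, was at 1137, 1491 and 1059 TPM, a mean of 1229 ± 230.2 TPM (SD, n = 3) and rank 85. Replicate 2 was the highest and replicates 1 and 3 lay close together. Its near copy Ifit3b was at 172, 232 and 138 TPM, a mean of 181 ± 47.6 TPM and rank 770. It too was highest in replicate 2, and the values of the pair did not come near each other in any replicate. The ratio of Ifit3 to Ifit3b was 6.62, 6.41 and 7.645 in replicates 1, 2 and 3, a log2 ratio of 2.78 ± 0.13. The genes share 99.2% of their aligned promoter bases, with gaps left out, and 99.1% of their coding bases. Their levels stood several fold apart in each replicate, and the part of either sequence in this was not tested.

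How the reads of this pair were divided was examined in the deposited values. The authors' tables give a posterior standard deviation for each count. It was 24.8, 33.9 and 26.5 counts in replicates 1, 2 and 3, the same value for Ifit3 as for Ifit3b in each, against counts of 26923, 56639 and 40771 for Ifit3 and of 4765, 10367 and 6267 for Ifit3b. That is 0.520%, 0.327% and 0.423% of the Ifit3b count. For the other 4 members it was at most 0.24 counts, and 0 for Ifit2. This deviation is the program's own and does not test whether its division is right. In the tables made from FASTQ files the ratio of Ifit3 to Ifit3b was 6.63, 6.51 and 7.82, a log2 ratio of 2.80 ± 0.15, so the division moved by less than the spread between replicates. The summed expected counts of the pair, which need no division, were 31688, 67006 and 47038.

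Ifit1, the cap-sensing member, was at 1015, 706 and 946 TPM, a mean of 889 ± 162 TPM (SD, n = 3) and rank 125. Replicate 2 was the lowest, the reverse of Ifit3 and Ifit3b. Ifit1bl1, which encodes an Ifit1-like protein, was at 599, 169 and 303 TPM, a mean of 357 ± 220.1 TPM and rank 406. It was again lowest in replicate 2, and the highest value was 3.55 times the lowest; without replicate 1 its mean was 236 TPM. The ratio of Ifit1 to Ifit1bl1 was 1.69, 4.18 and 3.13. The counts behind Ifit1bl1 were 18504, 8398 and 15282, so counting error is small beside this difference.

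Ifit1bl1 RNA came mainly from 1 of its 2 annotated starts. Transcript Ifit1bl1-202, which begins 2629 bases upstream, held 82.0%, 88.4% and 86.1% of the gene's TPM in replicates 1, 2 and 3, and Ifit1bl1-201 held the rest, 14.5% ± 3.22 (SD, n = 3). The transcripts share their last 2137 bases and differ only in the 63 and 56 bases before them, so few reads decide this division. The FASTQ-made tables gave 87.4% ± 3.21 to Ifit1bl1-202. Replicate 1, where the gene was highest, had the largest share of Ifit1bl1-201 in both quantifications.

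Ifit1bl2 was at 0.89, 0.58 and 0.61 TPM, a mean of 0.693 ± 0.171 TPM (SD, n = 3), at rank 10416 of the protein-coding genes. It rested on 44, 46 and 50 counts, with exact 95% Poisson intervals of 32.0 to 59.1, 33.7 to 61.4 and 37.1 to 65.9, which cover counting error only. All lie above the 3 counts that a count of 0 allows. The FASTQ-made tables gave it 88, 71 and 82 counts, above each of these intervals. Those tables also hold more counts in all, 30711008, 40566508 and 40898915 in replicates 1, 2 and 3. In TPM, which is scaled to library size, Ifit1bl2 was higher there too, at 0.934, 0.713 and 0.915. The cause was not tested. Ifit1bl2 shares 12.3% of its 31-base windows with Ifit1bl1 and 7.19% with Ifit1, and the part of shared reads in its counts was not tested. Across the 127 bases between their starts, Ifit1 exceeded it 1140-, 1217- and 1551-fold, a log2 ratio of 10.33 ± 0.23 (FASTQ-made: 9.71 ± 0.23).

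**Figure D3:**
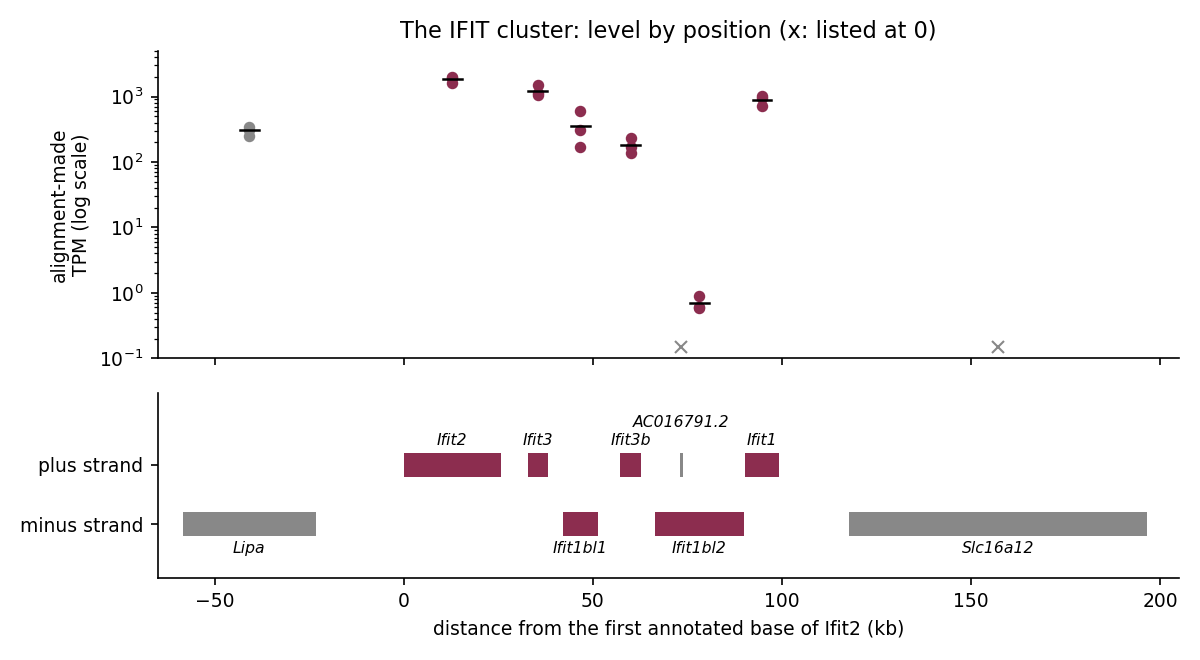
The upper panel gives alignment-made TPM on a log axis (points: 3 replicates, bar: mean, cross: listed at 0) and the lower panel the gene bodies by strand, both against distance in kb from the first base of Ifit2. IFIT genes are dark red. Ifit1bl2 lies below 1 TPM between Ifit3b and Ifit1, whose means are 181 and 889 TPM.

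The genes beside the cluster differed from each other in level. Lipa, which encodes lysosomal acid lipase, is the nearest protein-coding gene on the Ifit2 side, 23219 bases away, and stood at 302 ± 48.6 TPM (SD, n = 3). That mean lies within the range of the members, between Ifit3b (181 TPM) and Ifit1bl1 (357 TPM). On the Ifit1 side the nearest is the transporter gene Slc16a12, 18393 bases away, with 0 counts in all 3 replicates. The only other annotated gene within the cluster, the processed pseudogene AC016791.2 inside the interval of Ifit1bl2 on the opposite strand, also had 0 counts. At this depth a count of 0 leaves room for 3 counts, which is 0.128, 0.0814 and 0.0795 CPM (counts scaled to library size) in replicates 1, 2 and 3.

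The order of the members by mean TPM was Ifit2, Ifit3, Ifit1, Ifit1bl1, Ifit3b and Ifit1bl2, and it held in every replicate except for Ifit1bl1 and Ifit3b, which changed places in replicate 2. Ifit2 exceeded Ifit3 in all 3, by 1.74-, 1.30- and 1.52-fold, a log2 ratio of 0.59 ± 0.21 (SD, n = 3). Ifit3 and Ifit1 did not differ beyond their spread: the log2 ratio was 0.47 ± 0.53, with 1.12-fold in replicates 1 and 3 and 2.11-fold in replicate 2. Counts not divided by length reversed it to -0.23, with Ifit3 above Ifit1 in replicate 2 alone. Ifit1 exceeded Ifit1bl1 by 1.49 ± 0.67. Ifit1bl1 and Ifit3b did not differ beyond their spread, at 0.82 ± 1.16, with Ifit1bl1 3.48- and 2.18-fold higher in replicates 1 and 3 and at 0.726 times Ifit3b in replicate 2. Ifit3b exceeded Ifit1bl2 by 8.02 ± 0.55. An exact two-sided sign-flip test over 3 ratios cannot give a p below 0.25, which 4 of the 5 neighbour ratios reached (Ifit1bl1 to Ifit3b gave 0.5).

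Between replicates, the Ifit3 pair and the Ifit1-like genes lay on opposite sides of their means in replicate 2, and Ifit2 followed neither, at 0.11, 0.05 and -0.17 in replicates 1, 2 and 3. On the log2 CPM scale, with libraries scaled by TMM (trimmed mean of log ratios between libraries), Ifit3 and Ifit3b lay above their own mean in replicate 2 by 0.27 and 0.37, while Ifit1, Ifit1bl1 and Ifit1bl2 lay at -0.34, -0.91 and -0.26 there, the last of these on 44 to 50 counts. In TPM, Ifit3 with Ifit3b made up 26.7%, 38.0% and 29.5% of the family in replicates 1, 2 and 3, and the 3 Ifit1-like genes 32.9%, 19.3% and 30.8%. Replicate 2 was the only one in which the Ifit3 pair exceeded the Ifit1-like genes, at 1723 against 875 TPM. It was also the replicate with the high neutrophil marker sum (108 TPM, against 12.3 and 11.0), whose part in the result was not tested. Similar genes lay on the same side in replicate 2, as Ifit3 with Ifit3b and Ifit1 with its Ifit1-like neighbours, although each of these sets also shares sequence. Each set also lay on one side in replicate 1. In replicate 3 the Ifit1 set split, with Ifit1 at 0.12, Ifit1bl1 at -0.03 and Ifit1bl2 at -0.13. The 3 replicates are too few for a correlation between genes.

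The spread of Ifit1bl1 stood out among these. Its SD of log2 CPM was 0.93 (n = 3), larger than that of 99.1% of the 345 genes within 0.5 log2 of its level, whose median SD was 0.16. Ifit3b had an SD of 0.36, above 92.5% of 629 such genes, and Ifit1 and Ifit3 had 0.30 and 0.24, above 76.8% of 69 and 77.0% of 87. The values of Ifit1 and Ifit3 rest on replicate 2, without which the SD was 0.07 for Ifit1 and 0.07 for Ifit3. The SD of Ifit3b was 0.50, 0.22 and 0.29 without replicates 1, 2 and 3. Ifit1bl2, at 0.35, was above only 41.3% of 840 genes of its low level, where the median was 0.40. Ifit2 had an SD of 0.15, the smallest over 3 replicates, though not without replicate 1 (0.16, against 0.10 for Ifit1bl2) or without replicate 2 (0.20, against 0.07 for both Ifit1 and Ifit3). Without replicate 3 it was 0.04. Over all 12018 genes kept, the median SD was 0.19, and these percentages describe 3 libraries without a test.

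**Figure D4:**
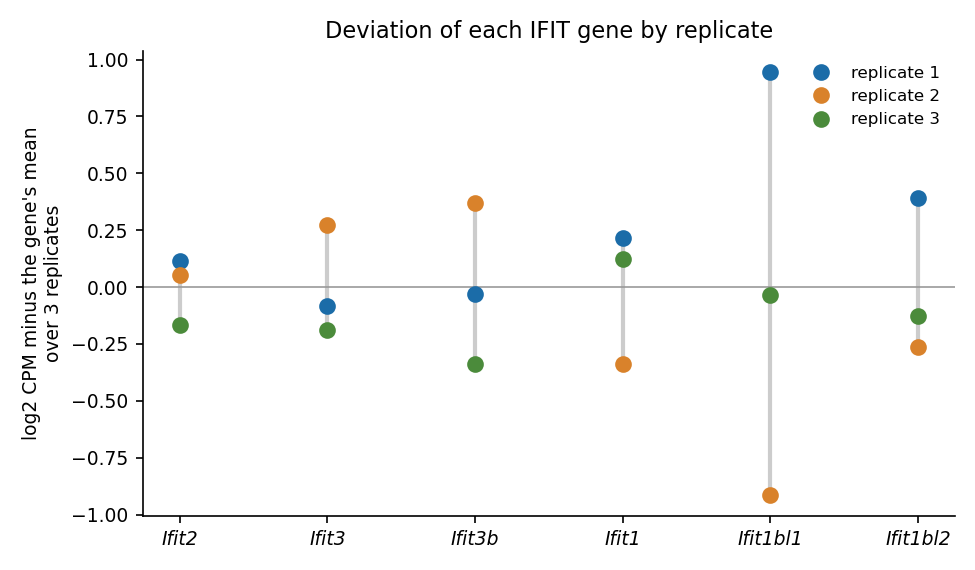
Log2 CPM of each IFIT gene minus its mean over the 3 replicates (y axis), with 1 point per replicate and a grey line over the range. Replicate 2 (orange) is the highest point for Ifit3 and Ifit3b and the lowest for Ifit1, Ifit1bl1 and Ifit1bl2, and Ifit1bl1 spans the widest range, from -0.91 to 0.95.

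Both quantifications put the members in the same order by mean TPM, but replicate 1 stood differently among the replicates. The 6 genes summed to 3236, 3903 and 3915 FASTQ-made TPM in replicates 1, 2 and 3, with replicate 1 the lowest, whereas replicate 1 was the highest in the alignment-made tables. The FASTQ-made TPM of Ifit2 was 1317, 1708 and 1592 in replicates 1, 2 and 3, that of Ifit3 746, 1259.6 and 1005, and that of Ifit1 668, 599 and 901. Ifit1bl1 was at 392, 142 and 287 TPM, Ifit3b at 113, 194 and 129 TPM and Ifit1bl2 at 0.934, 0.713 and 0.915 TPM. Ifit2 to Ifit3b were thus lower than in the alignment-made tables in all 3 replicates, and Ifit1bl2 was higher in all 3. The highest replicate moved from 1 to 2 for Ifit2 and from 1 to 3 for Ifit1, and the lowest from 3 to 1 for Ifit2, Ifit3 and Ifit3b.

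The difference was tested by limma over all 12458 genes with a mean of at least 1 TPM in either quantification, on log2(TPM + 1) within each sample. Both quantifications rest on the same reads, so the test measures only how steadily they differ over these 3 libraries. Of all genes tested, 17.1% passed an adjusted p of 0.05 (10.3% higher and 6.77% lower in the FASTQ-made tables). Of the 5 members tested, 0 passed, too few members to set apart from that share. Ifit1bl2 was too low to be tested. The differences ran from -0.26 ± 0.14 (standard error) for Ifit2 to -0.33 ± 0.17 for Ifit3b, with adjusted p from 0.155 to 0.201 by limma. Without adjustment, 2 of 5 members (Ifit3 and Ifit1) were below 0.05. That count was 4 of 5 relative to the median gene, on CPM and without replicate 3, and 0 in limma without the trend, without replicate 1 and without replicate 2. The median gene itself was lower by -0.18, and relative to it the 5 members lay at -0.08 to -0.14. The members moved with their libraries: in replicate 1 the median gene was at -0.39 and the 5 members at -0.59 to -0.61, and in replicate 3 at -0.01 and -0.02 to -0.11. On CPM in place of TPM, Ifit1, Ifit1bl1 and Ifit3b passed (limma adjusted p = 0.0454, 0.0334 and 0.0108) with differences of only -0.05, -0.06 and -0.07; on that scale 47.5% of all calls were higher in the FASTQ-made tables, against 60.3% in TPM. Without replicate 2, the genes called lower fell from 843 to 356.

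**Figure D5:**
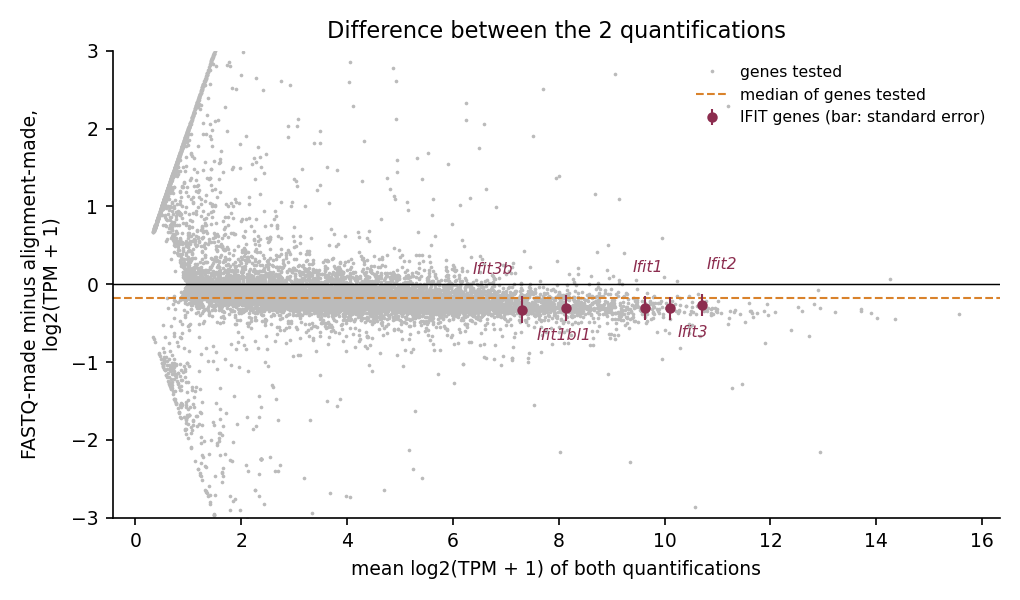
Difference between the quantifications (y axis, FASTQ-made minus alignment-made log2(TPM + 1), mean of 3 replicates) against the mean level (x axis) for the 12458 genes tested, with the 5 IFIT genes tested in dark red and their standard errors. The members lie just below the dashed line of the median gene at -0.18; 233 genes lie beyond the axis, which ends 3 log2 units above and below 0.

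The machinery around the IFIT genes was expressed throughout. The counts below stand beside 44.4% of protein-coding genes that reached 1 TPM in every replicate. From the interferon receptor to ISGF3, 7 of 7 genes reached 1 TPM in every replicate, and the lowest was Tyk2, a receptor-bound kinase, at 64.1 ± 10.1 TPM (SD, n = 3). Of the genes that lead from TLR4 to interferon 8 of 8 did so, from the adaptor gene Traf3 at 11.8 ± 1.46 TPM to Irf7, which encodes a transcription factor for interferon genes, at 2116 ± 131 TPM. Of the genes listed as limiters of interferon signalling 6 of 6 reached it. The lowest was Socs1, which inhibits receptor kinases, at 14.1 ± 7.74 TPM. The highest was Isg15, an interferon-induced ubiquitin-like protein gene placed in this list, at 3209 ± 815 TPM. Whether Isg15 limits interferon signalling in these cells was not tested. Among enzymes that build and methylate the mRNA cap, whose state IFIT1 reads, 6 of 6 reached it, from the ribose methyltransferase gene Cmtr2 at 2.82 ± 0.295 TPM to Cmtr1, which methylates the first transcribed nucleotide, at 82.6 ± 3.03 TPM. All 13 of 13 eIF3 subunit genes reached it, from Eif3j1 at 10.7 ± 0.665 TPM to Eif3h at 177 ± 25.3 TPM. In median log2(TPM + 1) these lists stood at 6.655, 5.59, 7.64, 4.25 and 6.60, in the order given, below the 9.04 of the IFIT genes. All genes that reached 1 TPM in every replicate had a median of 4.14, so the cap enzymes lay near it.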

How the data were processed

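The deposited file lists tie gene and transcript values of each sample to an alignment, and other transcript values directly to FASTQ files (6, 4 and 4 files in replicates 1, 2 and 3), on mm10 and annotation M21. Programs and any use of strand were not given in the sources used here. Per the file headers, the authors' tables hold expected or estimated counts, TPM and, per transcript, the percent of the gene's TPM, which was recomputed here. FASTQ-made values were summed per gene. Entries naming no mouse gene took 0.178%, 0.107% and 0.115% of counts and were left out of scaling and tests; deposited TPM was not rescaled.

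The 2 quantifications were compared with limma 3.58.1 (R 4.3.3) on differences of log2(TPM + 1), with a trended prior and Benjamini-Hochberg adjustment at 0.05 over all genes tested. Expected counts were rounded, filtered with filterByExpr and scaled by TMM in edgeR 4.0.16 for log2 CPM; DESeq2 1.42.0 gave alternative size factors. Coding and promoter sequences were aligned with MAFFT 7.526. Other steps used scipy 1.17.1, pandas 2.3.3, matplotlib 3.10.9 and numpy 2.4.6 in Python 3.11.15. The limma and spread steps were also run on simulated data, with noise drawn independently per gene and no shift shared by a library. The outcome of those runs is not given here. Each pair of libraries differed by more than sampling noise (chi-square per degree of freedom of 69.2 to 73.5). All members are named, the highest and lowest gene of each list, genes within the cluster and the nearest protein-coding gene on each side; 1 gene that this rule names is not reported here. Members and lists were chosen with earlier results of these data known.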

Additional observations from a re-analysis of the deposited data

How the results depend on the processing

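No paired analysis was possible because the samples form 1 group, so no replicate number recurs in another; ratios and the comparison of quantifications are within samples. With FASTQ-made tables the mean was 1539 TPM for Ifit2, 723 TPM for Ifit1 and 3685 TPM for the 6 genes summed; the other 4 levels moved by less than 1 SD, as did all 7 under TMM factors and DESeq2 size factors. Expected counts, which are not divided by length, gave family shares of 57.0% for Ifit2, 15.8% for Ifit3, 2.73% for Ifit3b and 0.0186% for Ifit1bl2 (FASTQ-made 0.0235%), and log2 ratios of 1.86 for Ifit2 to Ifit3, -0.23 for Ifit3 to Ifit1, which is reversed, 7.18 for Ifit3b to Ifit1bl2 and 2.55 for Ifit3 to Ifit3b. Ifit3b to Ifit1bl2 was 7.38 in FASTQ-made tables and 6.72 with a pseudocount of 1. Transcript Ifit2-201 took 99.9% and Ifit2-202 0.114% of Ifit2 in FASTQ-made tables. Leaving out each replicate gave Ifit1bl1 a mean of 236 to 451 TPM, and moved no other mean TPM by over 1.5 times.

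Genes with lower FASTQ-made TPM numbered 843, against 261 with no filter on low values, 2079 on CPM and 356 to 750 leaving out each replicate; those with higher TPM numbered 1283, and 1033 to 1488. On CPM, Ifit1, Ifit1bl1 and Ifit3b passed limma with differences of -0.0544, -0.058 and -0.0727, and no member passed under the other 7 alternatives (limma adjusted p from 0.0619 to 0.863). The causes were not tested. The SD of Ifit1bl1 in log2 CPM was 0.90 to 0.93 under the alternative scalings, filter and count tables, and 0.62 to 1.31 leaving out each replicate. Those ranges were 0.0397 to 0.20 for Ifit2, 0.0748 to 0.32 for Ifit3, 0.0656 to 0.39 for Ifit1, 0.22 to 0.50 for Ifit3b and 0.10 to 0.46 for Ifit1bl2. Depth limits Ifit1bl2, with 44 to 50 counts, and Ifit2-202; Ifit3 and Ifit3b are limited by shared sequence.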
